A study of Mus musculus with 6 samples.

Results

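The genes described here encode proteins of the lysosome: 12 proteases, 12 glycosidases, 5 sulfatases, 4 lipid hydrolases, 3 soluble proteins that carry or activate rather than cleave, and 4 proteins of the limiting membrane. They were taken by name as 40 listed members, and all 40 were found among the 25700 gene identifiers of the count files. RNA came from bone marrow–derived macrophages (BMDMs), primary macrophages grown from the marrow of C57BL/6J mice aged 8 to 10 weeks. Heme-treated cultures received 300 μM heme-albumin on day 3 and control cultures received albumin, the carrier without heme. All cultures grew in 100 ng/ml M-CSF, the growth factor that turns marrow progenitors into macrophages, and were harvested on day 7. Each group had 3 libraries, and each library came from macrophages of 1 mouse.

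Lysosomes are acidic vesicles in which cells break down material that they take up or recycle. Macrophages depend on them to digest engulfed cells, red blood cells included. Most lysosomal enzymes are made in the endoplasmic reticulum, tagged with mannose 6-phosphate in the Golgi and carried to the lysosome by receptors of that tag. The transcription factor TFEB and its relatives bind a short DNA element named CLEAR upstream of many lysosomal genes. Inherited loss of single enzymes of this group causes lysosomal storage diseases.

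The libraries held 27201038 to 32366848 counts in heme-treated and 30509099 to 32994595 counts in control BMDMs. Hmox1, the gene of heme oxygenase 1, had a log2 fold change (heme over control) of 5.17 (adjusted p = 2.56e-09, edgeR), and no heme-treated library overlapped a control. The quasi-likelihood test of edgeR was applied to 12433 genes after TMM scaling, which sets libraries to a common level. A gene was called at a Benjamini-Hochberg adjusted p under 0.05, computed over all tested genes. Levels are in CPM after TMM normalization, so that libraries of unequal depth share a scale. Of 6 macrophage markers, 5 were lower and 1 was higher, and their summed level was 5140 to 5438 CPM in heme-treated and 6270 to 7041 CPM in control libraries. Neutrophil markers moved the other way: all 8 tested of 10 were higher, at a sum of 96.2 to 144.5 CPM in heme-treated and 7.15 to 11.1 CPM in control libraries, with Elane at 0 in the controls. Elane, Mpo, Prtn3 and Ctsg (0 to 0.204 CPM on average in controls) passed the filter on low counts only through the heme-treated libraries. A call of these genes could therefore only be higher. The 4 monocyte markers (3 higher, 1 lower) summed to 87.2 to 95.8 CPM in heme-treated and 33.1 to 36.1 CPM in control libraries. The 6 osteoclast markers (4 tested, 4 higher), Ctsk among them, summed to 61.4 to 69.2 CPM in heme-treated and 13.6 to 18.3 CPM in control libraries. The same limit holds for Ocstamp here and for Plac8 and Ly6c2 among the monocyte markers (0.0846, 0.257 and 0.333 CPM on average in controls). The part of such cells in the results below was not tested, and in bulk RNA fewer cells of a type and less RNA per cell cannot be told apart. Summed markers of fibroblasts, mast cells with basophils, dendritic cells, B cells, and T with NK cells were each below 2 CPM in every library, with Cd3e, Cd3g and Dcn at 0 in all.

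Heme-treated BMDMs had less mRNA of most of the 40 members, but far more of cathepsin L. All 40 members passed the filter on low counts. Of them, 25 were lower (62.5%) and 6 were higher (15.0%) with heme, and 9 did not pass the test. Among all tested genes, 30.8% were lower and 31.7% were higher. The median log2 fold change of the members was -0.50, and that of all tested genes was 0.00. The 6 members that rose were Ctsl, Ctsh, Gaa, Cd63, Galns and Gla. Log2 fold changes ran from -1.83 for Ctsf to 2.44 for Ctsl, and 6 members fell by at least 1 on that scale (15.0%, against 8.41% of all tested genes). The 3 heme-treated libraries did not overlap the 3 control libraries in 36 members (90.0%), against 68.8% of all tested genes. Under scaling by library size alone, which moved the median of all tested genes to -0.22, 29 members were lower and 4 were higher, and all tested genes split into 5815 lower and 2579 higher in place of 3830 and 3938.

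**Figure D1:**
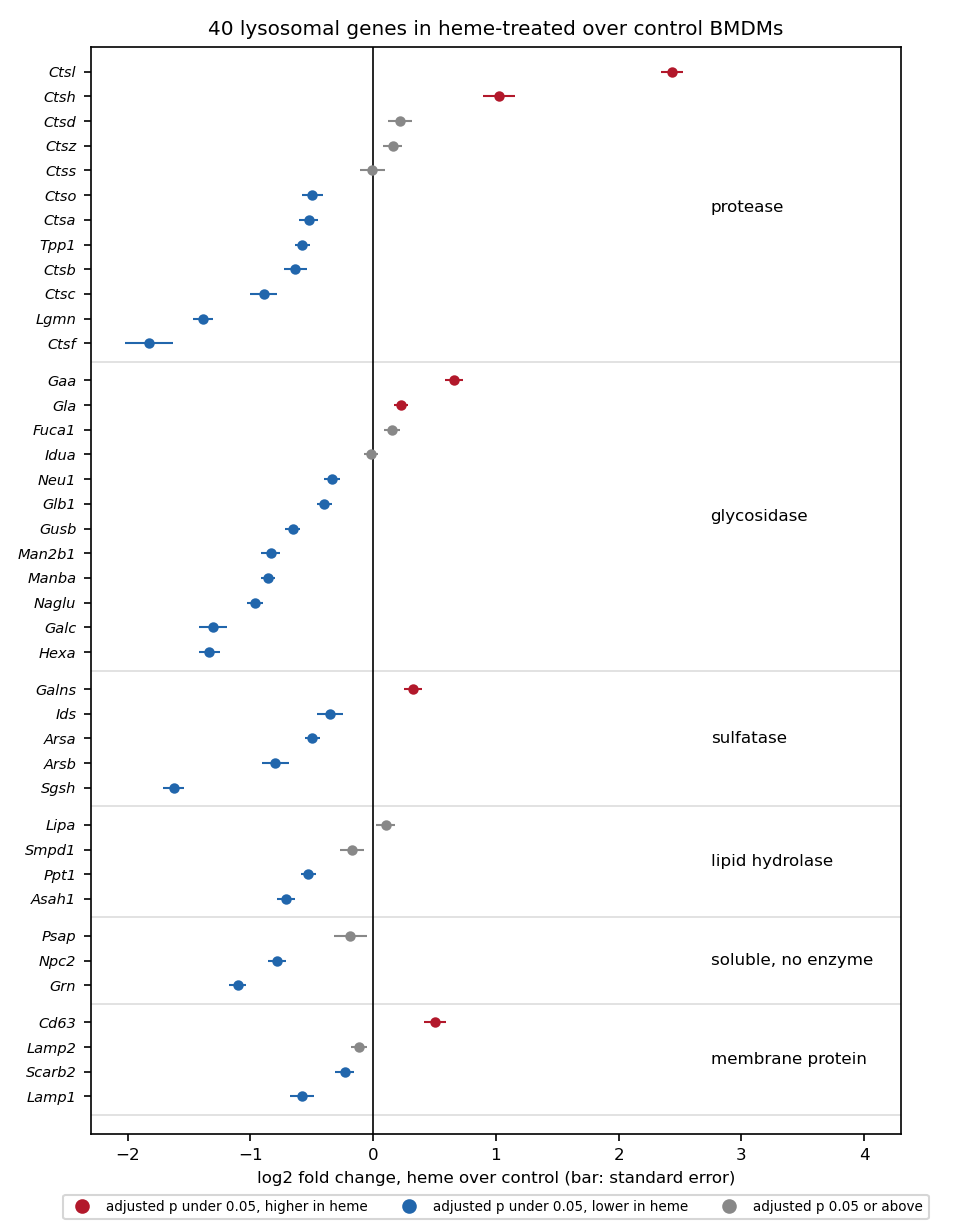
The 40 lysosomal genes by class, each at its log2 fold change between heme-treated and control BMDMs (heme over control). Points are edgeR's estimates and bars are standard errors (3 libraries per group); 25 points are lower, 6 are higher and 9 did not pass the test, and Ctsl stands at 2.44, to the right of all others.

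The share of each library that the members took up was lower with heme, by an amount that depended on the scaling. They held 5.27%, 5.18% and 5.33% of all counts in heme-treated and 6.69%, 7.69% and 6.93% in control libraries. The groups did not overlap (two-sided exact permutation, p = 0.1, below which 3 against 3 libraries cannot go). Glycosidase transcripts held 0.255% ± 0.000436 of counts in heme-treated BMDMs, against 0.462% ± 0.0223 in control BMDMs (SD, n = 3; exact permutation test, p = 0.1). Lipid hydrolases held 0.305% ± 0.0112 in heme-treated and 0.359% ± 0.0156 in control BMDMs (SD, n = 3; exact permutation test, p = 0.1). The log2 ratio of the shares was -0.43 for all members, -0.34 for proteases and -0.24 for lipid hydrolases. With TMM scaling these ratios were -0.21, -0.12 and -0.015. Leaving the 20 most abundant genes out of the totals as well gave the same values. TMM offsets such a change of the totals, so this was not a separate check. The 20 most abundant genes of each library, picked in each separately, took 24.6% to 26.7% of the counts in heme-treated and 17.4% to 19.3% in control libraries.

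RefSeq promoter windows, 250 bases before to 50 bases after a start site, were on hand for 36 members, that is, for all but Ctsb, Ctsh, Asah1 and Galns. The core of the CLEAR element, searched as TCACGTG on both strands, was in a window of 10 of these 36 genes (27.8%), against 6.99% of tested genes and 4.29% of all genes with a window. The 10 genes are shown because members of every outcome are among them. The sequences are from RefSeq (GRCm38.p6), on the strand of the gene, with the matches in capitals. Where a match and its reverse complement overlap, the capitals run over both.
Lamp1: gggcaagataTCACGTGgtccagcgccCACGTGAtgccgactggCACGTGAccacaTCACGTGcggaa
Sgsh: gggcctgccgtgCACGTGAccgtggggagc
Lgmn: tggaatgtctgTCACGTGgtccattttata
Naglu: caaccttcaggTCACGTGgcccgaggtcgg
Ctsa: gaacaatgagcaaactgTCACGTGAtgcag
Arsa: cttcaactcagtgTCACGTGttgtctgctc
Glb1: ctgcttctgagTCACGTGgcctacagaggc
Gaa: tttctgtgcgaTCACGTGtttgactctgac
Gla: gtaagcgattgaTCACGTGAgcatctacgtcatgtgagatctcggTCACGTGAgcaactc
Ctsd: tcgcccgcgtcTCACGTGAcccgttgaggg
The Lamp1 stretch lies at chr8:13159089-13159156 on the plus strand and holds 4 matches. The others are at chr11:119355522-119355551 (Sgsh, minus), chr12:102439124-102439153 (Lgmn, minus), chr11:101070009-101070038 (Naglu, plus), chr2:164833743-164833772 (Ctsa, plus), chr15:89477425-89477454 (Arsa, minus), chr9:114401018-114401047 (Glb1, plus), chr11:119267811-119267840 (Gaa, plus), chrX:134601186-134601245 (Gla, minus) and chr7:142387908-142387937 (Ctsd, minus). The RefSeq start sites used for Lgmn, Ctsa and Ctsd, and their printed stretches, lie inside the gene as annotated. The stretches of Sgsh, Naglu and Arsa lie partly inside it. Ctsd has another match, at position -245 from its start, that is not printed.

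**Figure D2:**
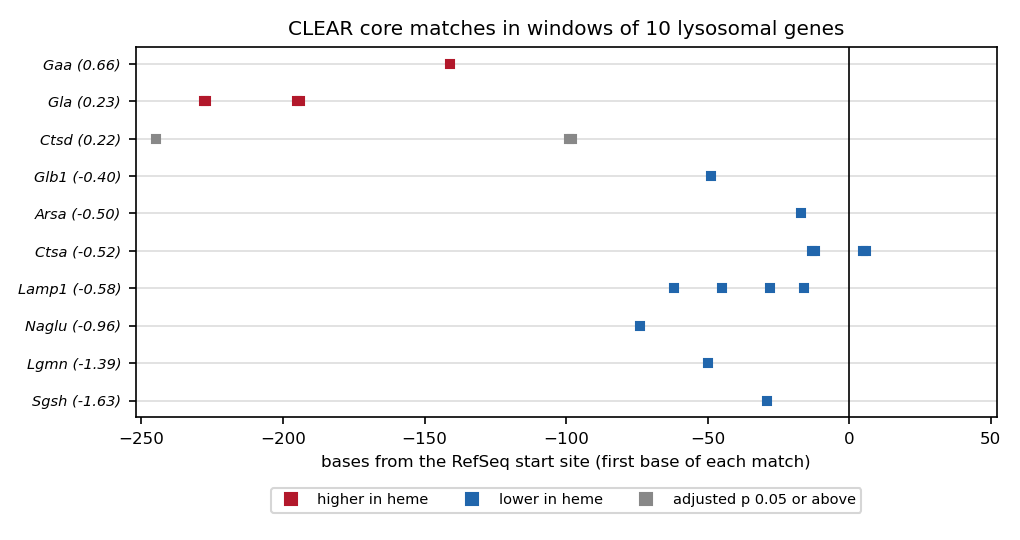
Position of each CLEAR core match relative to the RefSeq start site (first base of the match, in bases) for 10 lysosomal genes, ordered by log2 fold change (in brackets). Matches of the 7 genes that fell lie at -74 to 6, those of Gaa and Gla at -228 to -141, and those of Ctsd, which was not called, at -245 and at -99 and -98; no difference was tested.

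Of the 10 genes with the CLEAR core, 7 fell, Gaa and Gla rose, and Ctsd did not pass the test. Of all 40 members, 62.5% fell and 15.0% rose, against 30.8% and 31.7% of all tested genes. Among members with a window, the CLEAR core was in 7 of the 23 that fell, 2 of the 4 that rose and 1 of the 9 not called. Matches began between 74 bases before and 6 bases after the start in the 7 that fell, at position -141 in Gaa, at positions -228 to -194 in Gla, and at positions -245, -99 and -98 in Ctsd. These positions were noticed with the calls known, and no difference between the groups of genes was tested. Ctsl holds the shorter E-box CACGTG, without the flanking base, at 236 bases before its RefSeq start (chr13:64370739-64370768, minus strand). The stretch lies inside the gene as annotated and is printed here because Ctsl had the largest rise.
Ctsl: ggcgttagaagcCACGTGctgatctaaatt
The E-box, which lies within every CLEAR core, was in 12 of the 36 genes (33.3%), against 11.9% of tested genes. The core of the antioxidant response element that NRF2 binds, searched as TGACNNNGC on both strands, was in 8 of the 36 (22.2%), against 17.2% of tested genes. It was in 5 of the 23 members with a window that fell, 0 of the 4 that rose and 3 of the 9 not called. No difference between these groups was tested. No match says only that these letters are not in this window.

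Among the proteases, 2 rose (16.7%, against 31.7% of all tested genes), 7 fell (58.3%, against 30.8%) and 3 missed the threshold. Ctsl encodes cathepsin L, a cysteine endopeptidase of the papain family (chromosome 13 of GRCm38, from 64359337 to 64370890). It had 3389, 3404 and 3605 CPM in heme-treated libraries, against 701, 633 and 589 CPM in control libraries. The heme-treated libraries lay close together and far above all controls, with a log2 fold change of 2.44 (standard error 0.09, adjusted p = 3.7e-08), or 5.41-fold. Its exons overlap an antisense gene and a processed pseudogene, neither of which has counts here. Ctsh, the gene of the aminopeptidase cathepsin H (chromosome 9, from 90054152 to 90076089), had 153, 143 and 162 CPM in heme-treated and 59.6, 90.4 and 75.6 CPM in control libraries. The groups did not overlap, although the controls were spread, and the log2 fold change was 1.02 (standard error 0.13, adjusted p = 0.000104).

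The largest fall of all 40 members was in another papain-family gene at a low level. Ctsf, which encodes cathepsin F (chromosome 19, from 4855130 to 4860918), had 4.51, 4.23 and 4.91 CPM in heme-treated and 12.8, 21.4 and 14.2 CPM in control libraries (log2 fold change -1.83, standard error 0.20, adjusted p = 3.35e-05). Lgmn encodes legumain, an asparaginyl endopeptidase that also processes cathepsins to their mature forms (chromosome 12, from 102394084 to 102439813). It had 676, 728 and 699 CPM in heme-treated libraries, against 1666, 1995 and 1834 CPM in control libraries, with a log2 fold change of -1.39 (standard error 0.08, adjusted p = 7.29e-07). For both genes every heme-treated library lay below every control. Ctsc encodes the dipeptidyl peptidase that activates serine proteases of granules. It fell to 79.3 to 88.1 CPM in heme-treated libraries, against 132 to 183 CPM in control libraries (log2 fold change -0.89). Ctsb, the gene of cathepsin B, fell to 10578 to 11158 CPM, against 16177 to 18332 CPM (-0.63, adjusted p = 0.000328). Smaller falls were found for Tpp1, a tripeptidyl peptidase gene (-0.58), Ctsa, a serine carboxypeptidase gene (-0.52), and Ctso, the gene of cathepsin O (-0.50).

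Of the proteases that did not pass the test, the aspartic protease cathepsin D had the most abundant transcript. Ctsd (chromosome 7, from 142375911 to 142388038) had 14688, 13212 and 14280 CPM in heme-treated and 11861, 12816 and 11545 CPM in control libraries. The groups did not overlap, yet the log2 fold change of 0.22 missed the threshold (standard error 0.10, adjusted p = 0.071). DESeq2 and limma-voom called it (adjusted p = 0.00959 and 0.0306), as did edgeR without control replicate 2 (adjusted p = 0.0374), and under scaling by library size alone it was -0.00. The gene Gm49369 covers 34.4% of its exon length on the same strand and moved like it (0.21, adjusted p = 0.0632), and its reads and those of Ctsd may be mixed. Ctss, the gene of cathepsin S, which trims the invariant chain of MHC class II, had 2576, 2472 and 2598 CPM in heme-treated and 2173, 2780 and 2728 CPM in control libraries. These values overlapped (log2 fold change -0.01, standard error 0.10, adjusted p = 0.961). Ctsz, the gene of the carboxypeptidase cathepsin Z, had a log2 fold change of 0.16 (adjusted p = 0.0974).

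**Figure D3:**
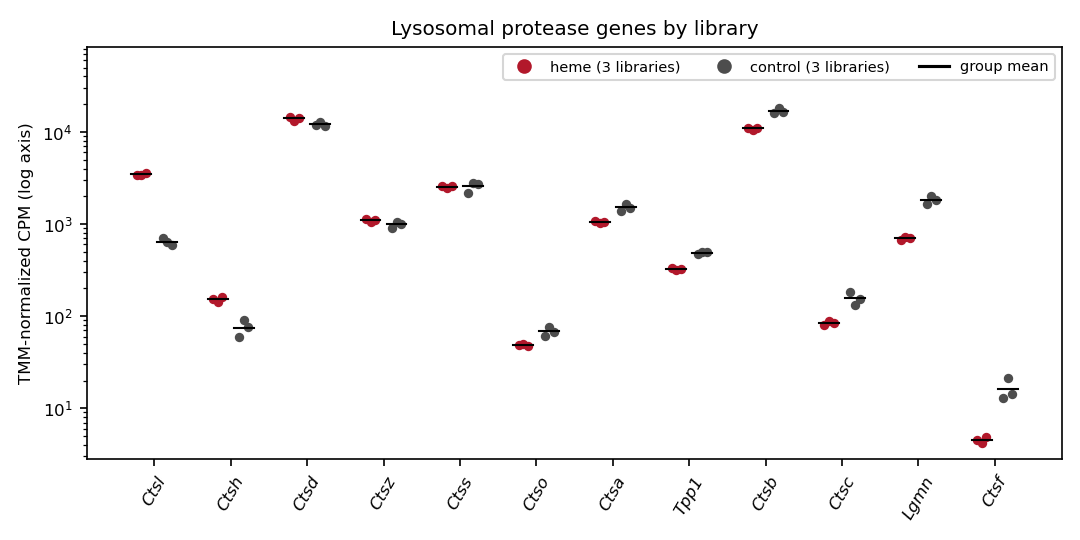
TMM-normalized CPM (log axis) of the 12 lysosomal protease genes, ordered by log2 fold change. Each point is a library and each line the mean of a group; heme-treated and control points are apart in all but Ctss.

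Seen per transcript length, the make-up of protease mRNA shifted. Levels of different genes were compared as TPM, which divides counts by the length of the principal transcript. For Ctsl that length was 6168 bases, close to its whole exon length of 6489 bases. If shorter transcripts of Ctsl prevailed, its shares and ratios below would be too low in both groups. Ctsd made up 50.8% ± 0.871 of protease TPM in heme-treated and 41.9% ± 1.38 in control BMDMs (SD, n = 3). Its own TPM did not rise, at 12516 in heme-treated and 13172 in control BMDMs on average. The summed protease TPM was 24624 in heme-treated and 31415 in control BMDMs. Ctsb made up 17.7% ± 0.246 in heme-treated and 26.4% ± 0.380 in control BMDMs (SD, n = 3). The share of Ctsl was 4.33% ± 0.182 in heme-treated and 0.771% ± 0.10 in control BMDMs, and that of Lgmn was 2.71% ± 0.205 in heme-treated and 6.79% ± 0.226 in control BMDMs (SD, n = 3). For each of these 4 genes the groups did not overlap (two-sided exact permutation, p = 0.1 for each). Ctss held 14.5% ± 0.221 in heme-treated and 13.9% ± 1.33 in control BMDMs (SD, n = 3; exact permutation test, p = 0.7). The ratio of Ctsl to Lgmn TPM was 1.62, 1.51 and 1.66 in heme-treated libraries, against 0.136, 0.102 and 0.104 in control libraries, so that Ctsl was the more abundant of both with heme and the less abundant without.

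**Figure D4:**
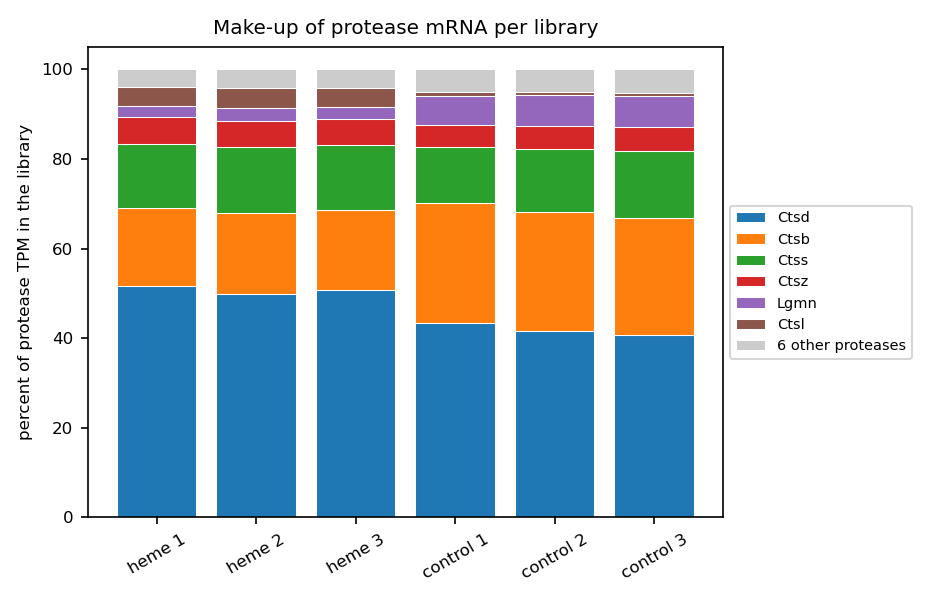
Share of each gene in the summed TPM of the 12 protease genes (percent), 1 bar per library, with the 6 genes outside the legend's names pooled. Ctsl takes 4.12% to 4.44% of the 3 heme-treated bars and 0.708% to 0.886% of the 3 control bars.

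Glycosidases cut sugars from glycolipids, glycoproteins and glycosaminoglycans residue by residue. In this class 8 of 12 fell (66.7%, against 30.8% of all tested genes), 2 rose (16.7%, against 31.7%) and 2 missed the threshold. Hexa was the most abundant of them in both groups. It encodes the alpha subunit of beta-hexosaminidase, whose loss causes Tay-Sachs disease (chromosome 9, from 59539540 to 59565109). Heme-treated libraries had 441, 466 and 449 CPM, against 1020, 1271 and 1126 CPM in control libraries, a log2 fold change of -1.33 (standard error 0.09, adjusted p = 1.26e-06). The lowest control library had more than 2 times the level of the highest heme-treated library. Gm2a, the gene of the activator protein that presents the ganglioside substrate, fell less (-0.28, adjusted p = 0.00565). Gaa, the acid alpha-glucosidase gene for glycogen, whose loss causes Pompe disease, rose. It had 271, 236 and 249 CPM in heme-treated and 148, 162 and 169 CPM in control libraries (chromosome 11, from 119267887 to 119285454; log2 fold change 0.66, standard error 0.08, adjusted p = 5.31e-05).

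Sgsh lies 58.0 kb from Gaa on chromosome 11 (from 119343425 to 119355536) and moved the opposite way. It encodes the sulfamidase of heparan sulfate breakdown and had 52.3, 55.8 and 46.2 CPM in heme-treated libraries, against 145, 167 and 164 CPM in control libraries (log2 fold change -1.63, standard error 0.09, adjusted p = 3.44e-07). The ratio of Gaa to Sgsh TPM was 5.08 to 6.47 in heme-treated and 1.16 to 1.24 in control libraries. Card14 overlaps 21.6% of the Sgsh exon length on the opposite strand and had nearly the same log2 fold change (-1.65). The sources used here do not give the strand setting of the counting, and without strand reads of both cannot be told apart. The same limit holds for other members whose exons overlap a gene on the opposite strand: Hexa with Tmem202 (12.8% of exon length, log2 fold change of Tmem202 -1.26), Ctsb with Fdft1 (12.8%, -1.19), Ctsa with Pltp (10.5%, -2.75), Lamp1 with Grtp1 (9.31%, -0.63) and Ppt1 with Cap1 (3.51%, 0.21). Cap1 was the only partner in the count files with more counts than the member. In all, 15 members share exon sequence with another annotated gene, 3 of them on the same strand. Galns was the only sulfatase gene that rose, and in heme-treated BMDMs it was the most abundant per length. Its enzyme removes sulfate from keratan sulfate, and it had 82.1, 88.3 and 86.1 CPM in heme-treated and 74.1, 64.2 and 66.3 CPM in control libraries (0.33, standard error 0.07, adjusted p = 0.00313). Its groups did not overlap, but it did not pass the test under scaling by library size alone (0.10, adjusted p = 0.267), and neither did Gla (0.00, adjusted p = 0.953).

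**Figure D5:**
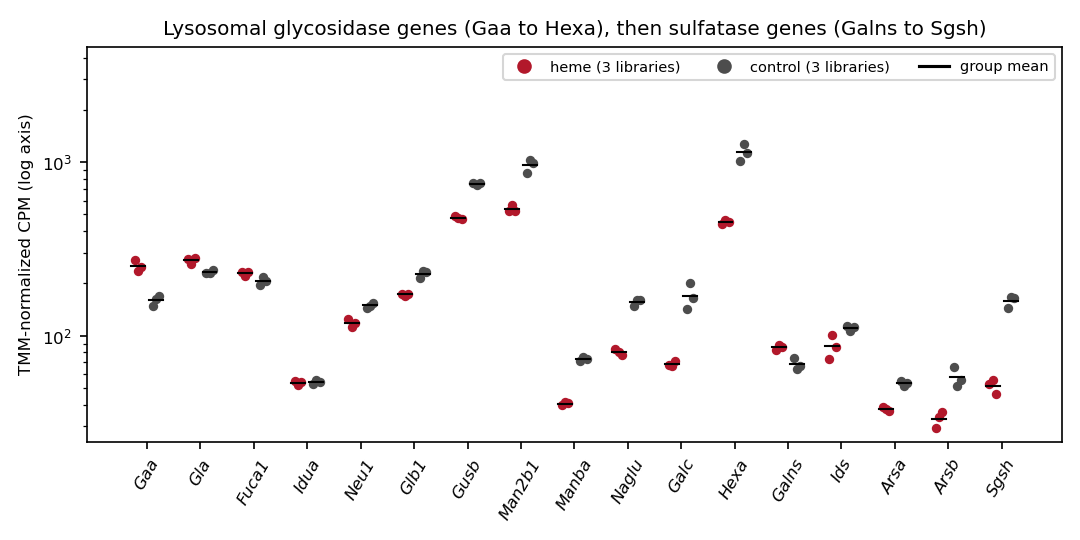
TMM-normalized CPM (log axis) of 12 glycosidase and 5 sulfatase genes, each class ordered by log2 fold change. Each point is a library and each line the mean of a group; the groups overlap only in Idua, and the widest gaps are those of Sgsh, Hexa and Galc.

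Grouped by substrate, a grouping made after the values were seen, the falls were spread over several pathways. Of 7 enzymes for heparan, dermatan and keratan sulfate, 5 fell (71.4%, against 30.8% of all tested genes), Galns rose and Idua did not pass the test. Sgsh fell most, followed by Naglu, an N-acetylglucosaminidase gene (-0.96), Arsb, arylsulfatase B (-0.80), Gusb, beta-glucuronidase (-0.66), and Ids, iduronate sulfatase (-0.35). Idua, the gene of the iduronidase that acts after Ids, had 54.4, 51.6 and 53.9 CPM in heme-treated and 52.6, 55.3 and 54.1 CPM in control libraries (-0.02, standard error 0.06, adjusted p = 0.808). It was called lower under scaling by library size alone (-0.24, adjusted p = 0.00531). The call of Ids rested on heme replicate 3 (adjusted p = 0.0153, and 0.0525 without that library), and its heme-treated libraries were spread, at 73.1, 101 and 86.3 CPM.

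Of 7 enzymes for sphingolipids, 5 fell (71.4%, against 30.8% of all tested genes), Gla rose and Smpd1 did not pass the test. Galc, which encodes the galactosylceramidase lost in Krabbe disease, fell to 68.0, 66.7 and 70.9 CPM in heme-treated libraries, against 142, 201 and 166 CPM in control libraries (-1.30, standard error 0.11, adjusted p = 7.97e-06). Asah1, acid ceramidase, had a log2 fold change of -0.71, Arsa, arylsulfatase A, of -0.50 and Glb1, beta-galactosidase, of -0.40. Gla, alpha-galactosidase A, had 274, 260 and 279 CPM in heme-treated and 228, 229 and 237 CPM in control libraries (0.23, adjusted p = 0.00821). Smpd1, acid sphingomyelinase, had a log2 fold change of -0.17 (adjusted p = 0.139), and of -0.25 without control replicate 1 (adjusted p = 0.0322). With scaling by library size alone it was -0.39 (adjusted p = 0.00357). For the glycan chains of glycoproteins, the mannosidase genes Manba (-0.86) and Man2b1 (-0.84) and the sialidase gene Neu1 (-0.34) fell, while the fucosidase gene Fuca1 had a log2 fold change of 0.15 (adjusted p = 0.0629, and 0.0381 without control replicate 2). The products of Ctsa, Neu1 and Glb1 form a complex in the lysosome, and all 3 genes fell, by 0.52, 0.34 and 0.40.

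Of the remaining lipid hydrolases, Ppt1 fell and Lipa did not pass the test. Lipa encodes lysosomal acid lipase, which frees cholesterol and fatty acids from lipoproteins, and was the most abundant gene of its class (chromosome 19, from 34492318 to 34527474). It had 2798, 2827 and 2971 CPM in heme-treated and 2499, 2789 and 2710 CPM in control libraries. The heme-treated libraries were all above the controls, but by less than the test could tell (log2 fold change 0.10, standard error 0.08, adjusted p = 0.27). Ppt1, the gene of a thioesterase that removes palmitate from proteins, fell to 119 to 125 CPM in heme-treated libraries, against 170 to 187 CPM in control libraries (-0.53, adjusted p = 6.11e-05).

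The soluble proteins without a hydrolase activity of their own were Grn, Npc2 and Psap. Grn encodes progranulin, a secreted and lysosomal protein whose loss causes lysosomal storage in neurons (chromosome 11, from 102430315 to 102437048). It had 1435, 1455 and 1387 CPM in heme-treated libraries, against 2991, 3076 and 3133 CPM in control libraries, and both groups were tight (log2 fold change -1.11, standard error 0.07, adjusted p = 1.05e-06). Npc2, a cholesterol carrier that hands its load to the membrane protein NPC1, fell to 605, 581 and 600 CPM in heme-treated libraries, against 955, 1081 and 1040 CPM in control libraries (-0.78). Npc1, the gene of its partner, was higher (0.23, adjusted p = 0.0115). The ratio of Npc2 to Npc1 TPM was 1.86 to 1.91 in heme-treated and 3.73 to 3.95 in control libraries. Psap is the precursor of the saposins, the activators of sphingolipid enzymes (chromosome 10, from 60277627 to 60302597). After Ctsd it was the most abundant member per length in both groups, and it had 10148, 10507 and 9932 CPM in heme-treated and 9600, 14026 and 11172 CPM in control libraries. Its controls overlapped the heme-treated libraries (log2 fold change -0.19, standard error 0.13, adjusted p = 0.255), and without control replicate 1 it was called lower (-0.31, adjusted p = 0.0164), whereas without control replicate 2 the log2 fold change was -0.04 (adjusted p = 0.762). Psap was also called lower under scaling by library size alone (-0.41, adjusted p = 0.0186).

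Of the 4 membrane proteins, 2 fell, 1 rose and 1 missed the threshold. The shares over all tested genes were 30.8% lower and 31.7% higher, and no difference from them was tested for these 4 genes. Lamp1, the gene of a heavily glycosylated protein that lines the membrane (chromosome 8, from 13159161 to 13175338), had 2134, 2119 and 2200 CPM in heme-treated libraries, against 2844, 3584 and 3218 CPM in control libraries. The groups did not overlap, and the log2 fold change was -0.58 (standard error 0.09, adjusted p = 0.000513). Lamp2, its paralog with a part in autophagy, had 659, 699 and 700 CPM in heme-treated and 727, 749 and 752 CPM in control libraries (-0.11, adjusted p = 0.144, and -0.34 under scaling by library size alone, adjusted p = 0.00119). Cd63, a tetraspanin gene of late endosomes and exosomes, rose to 826, 764 and 835 CPM in heme-treated libraries, against 497, 617 and 592 CPM in control libraries (0.51, standard error 0.09, adjusted p = 0.000863). Scarb2 encodes LIMP-2, which carries glucocerebrosidase to the lysosome, and had a log2 fold change of -0.23 (adjusted p = 0.0297). That call was lost without control replicate 2 (-0.17, adjusted p = 0.0728), control replicate 3 (adjusted p = 0.0702), or heme replicate 1, 2 or 3 (adjusted p = 0.0936, 0.0809 and 0.0625).

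The control libraries varied more than the heme-treated ones. The coefficient of variation was larger in controls for 30 of 40 members, with a median of 3.37% in heme-treated and 7.09% in control BMDMs, and for 64.1% of all tested genes. Control replicate 2 was the highest control in 27 members, and in 37.1% of all tested genes. Control replicate 1 was the lowest in 32 members, for which no share over all tested genes was computed. Without control replicate 2, 24 members were lower and 8 were higher, and without control replicate 1, 27 were lower and 6 were higher. Over all libraries left out in turn, 23 to 27 members were lower and 6 to 8 were higher.

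Other lysosomal hydrolases, 31 tested of 32 listed, comprised 14 that fell (45.2%, against 30.8% of all tested genes), 11 that rose (35.5%, against 31.7%) and 6 that missed the threshold, with a median log2 fold change of 0.01. The largest rises were those of Plbd1, a phospholipase B-like gene (4.08, 17.6 CPM in heme-treated and 1.04 CPM in control BMDMs on average), Ctsk, the gene of the collagen-degrading cathepsin K (2.03, 42.6 CPM in heme-treated and 10.5 CPM in control BMDMs), and Hgsnat, an acetyltransferase gene of heparan sulfate breakdown (1.20). The falls included those of Pla2g15, lysosomal phospholipase A2 (-1.62), and Hyal1, a hyaluronidase gene (-0.83). Of 13 genes for mannose 6-phosphate tagging and sorting, 7 fell (53.8%), 4 rose (30.8%) and 2 missed the threshold. Among all tested genes, 30.8% were lower and 31.7% were higher. Sort1, the gene of the sorting receptor sortilin, had 492, 530 and 487 CPM in heme-treated libraries, against 116, 118 and 127 CPM in control libraries (2.06, standard error 0.07, adjusted p = 1.94e-08). M6pr, the gene of the cation-dependent mannose 6-phosphate receptor, rose (0.38), as did Gnptg, a subunit gene of the tagging enzyme (0.26), whereas Igf2r, the gene of the other receptor, fell (-0.49), as did Gnptab, the catalytic subunit gene (-0.37). Nagpa, whose enzyme uncovers the tag, and the Golgi adaptor genes Gga3 and Gga2 fell by 0.73, 0.60 and 0.56. Under scaling by library size alone, 8 genes of this list were lower and 2 were higher, and without heme replicate 3, 2 were higher.

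Of 27 tested genes of other lysosomal membrane proteins, 12 fell (44.4%), 8 rose (29.6%) and 7 missed the threshold. Among all tested genes, 30.8% were lower and 31.7% were higher. Under scaling by library size alone, 17 of the 27 were lower and 5 were higher. The rises were led by Laptm4b (1.19), the lipid transporter gene Abca2 (0.74) and the amino acid transporter gene Slc36a1 (0.70). The falls were led by the peptide transporter gene Slc15a4 (-0.74), the cystine exporter gene Ctns (-0.69) and the sialic acid exporter gene Slc17a5 (-0.61). Of the inhibitors of cysteine cathepsins, Cstb, stefin B, rose (0.29, adjusted p = 0.00303), and Cst3, cystatin C, had 679, 587 and 634 CPM in heme-treated and 548, 641 and 683 CPM in control libraries (0.02, adjusted p = 0.852). Cst6 rose (3.53) but averaged 1.06 CPM in heme-treated and 0.0878 CPM in control BMDMs. It passed the filter on low counts only through the heme-treated libraries, and 4 stefin genes did not pass it. Of the factors that bind CLEAR, Tfec rose (0.73, adjusted p = 7.11e-05) and Tfe3 fell slightly (-0.16, adjusted p = 0.0321). The call of Tfe3 was lost with a replicate block and without control replicate 2 or 3 or heme replicate 1, 2 or 3. Tfeb had 36.7, 42.4 and 35.5 CPM in heme-treated and 38.7, 46.1 and 39.3 CPM in control libraries (-0.12, adjusted p = 0.308), and Mitf had a log2 fold change of 0.04 (adjusted p = 0.68).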

How the data were processed

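Bulk mRNA was sequenced from 3 heme-treated and 3 control BMDM cultures with a stranded library kit. The authors deposited raw read counts per gene, 1 file per library; per the labels, the processing used STAR 2.7.0, featureCounts and GRCm38.p5. The sources used here do not give the annotation release or the strand setting of the counting. Of 25700 identifiers, 113 had no symbol and held 0.0706% of counts.

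Counts were tested with edgeR 4.0.16 (R 4.3.3; filterByExpr with a minimum count of 10, TMM scaling, quasi-likelihood F test, two-sided, Benjamini-Hochberg adjustment over 12433 genes). Standard errors are the size of the log2 fold change divided by the square root of F. TPM used principal transcript lengths of GENCODE M21. Sums and ratios were compared by exact permutation. Replicates within a group are cultures from separate mice, and the labels do not say whether the groups share mice.

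Genes were named by rule: the 3 members that rose most and the 3 that fell most, the most abundant of each class, the 3 most changed genes of each further list in each direction, the CLEAR-binding factors, and the partners Gm2a, Npc1 and Cstb. A gene that the rule also covers is not reported here. Hmox1 was the check of the labels, all other members were given a value, and Igf2r, Gnptab and Cst3 were added after their values were seen. Members and lists were chosen with earlier results of these data known, and substrate groups after values were seen.

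Alternatives were other scalings and filters, DESeq2 1.42.0, limma-voom 3.58.1, a replicate block and each library left out in turn. The fit was tested on simulated data of 12400 genes with 200 changed. There edgeR called 49 of 50 genes at a log2 fold change of 1 and 49 of 49 at -1. It called 24 of 50 at 0.5, 28 of 50 at -0.5, and 4 of 12201 unchanged genes. In the real data 62.5% of tested genes were called, so these rates do not carry over to them. The simulation held no shift in library make-up and does not test the scaling.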

Additional observations from a re-analysis of the deposited data

How the results depend on the processing

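Of the 40 members, 27 kept their direction and their side of the threshold in all 15 alternatives, and 13 changed in at least 1. Among the alternatives, TMM without the 20 most abundant genes in the totals nearly repeats the main fit by construction. With library sizes as the only scaling, all tested genes gave 2579 higher and 5815 lower calls. With that scaling 2 mannose 6-phosphate genes, 1 activator or inhibitor gene and 5 other membrane protein genes were higher, 2 CLEAR-binding factors were lower, and the log2 fold changes of Ctsd (-0.0022), Ctsz (-0.063), Fuca1 (-0.069) and Lipa (-0.12), none of them called, changed sign. Idua (-0.24, adjusted p = 0.00531), Smpd1 (-0.39, adjusted p = 0.00357), Psap (-0.41, adjusted p = 0.0186) and Lamp2 (-0.34, adjusted p = 0.00119) were called lower with it. Gla and Galns lost their calls. Ctss changed sign with limma-voom (0.0013), with the replicate block (0.0019) and without single libraries (-0.12 to 0.047). Idua changed sign without single libraries (-0.042 to 0.0058), and both genes were far from the threshold in these fits. At a minimum of 1 CPM in 3 libraries, 1 activator or inhibitor gene was higher. Without single libraries, 0 to 1 CLEAR-binding factors were lower and 2 to 4 mannose 6-phosphate genes were higher. Deviations from the group means correlated at -0.0998, -0.142 and -0.0683 between same-numbered libraries. The labels do not say whether replicate numbers pair cultures of 1 mouse, and 3 libraries per group cannot decide it. With the replicate block, 6 members were higher and 25 lower, as without it, all tested genes gave 3671 higher and 3493 lower calls, and 0 CLEAR-binding factors were lower. No heme-treated library correlated best with the control of its own number. Log2 ratios of library shares, scaled by TMM with the 20 most abundant genes left out, were -0.21 for all members, -0.12 for proteases, -0.64 for glycosidases, -0.61 for sulfatases, -0.015 for lipid hydrolases, -0.36 for soluble proteins and -0.31 for membrane proteins. TMM scaling with all genes kept gave the same values at this rounding, because TMM offsets a change of the totals. As TPM over exon length they were -1.01 for glycosidases, -0.39 for lipid hydrolases and -0.67 for membrane proteins. The cause of these changes was not tested. Standard errors of the members were 0.06 to 0.20 on the log2 scale, which limits the differences that 3 libraries per group could resolve.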
